A study of Homo sapiens with 6 samples.

Results

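The second THUMPD2 knockout line (KO2, labelled THUMPD2 KO#2) was compared with its wild type (WT) in HEK293T cells, a human line derived from embryonic kidney. The comparison uses 2 KO2 and 2 WT libraries of total RNA out of 6, and the other 2 are the first knockout line (KO1), which served here to find rows changed in KO2 while KO1 stayed at the WT level. All 6 libraries come from the same cell line, no treatment or time is given, and how the lines were made, and whether each is 1 clone, is not given in the sources used here. There is 1 WT line, so an effect of losing THUMPD2 and any other difference between the KO2 line and WT cannot be told apart. The labels do not name separate cultures behind the 2 libraries of each group. The p-values therefore measure the spread between these libraries alone, which may be technical.

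THUMPD2 is a methyltransferase that works with the small activator protein TRMT112 and places N2-methylguanosine on U6 small nuclear RNA. U6 sits at the catalytic centre of the spliceosome, where it pairs with the 5′ splice site of the intron. TRMT112 also activates other methyltransferases, among them BUD23, which modifies ribosomal RNA.

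Of 59087 rows in the count table, 14184 had enough reads to be tested. The rows appear to hold reads from the strand opposite the gene they are named for: rows with exons of another gene on the opposite strand hold 89.9% of all counts. The antisense RNA AC245140.2, over the ribosomal protein gene RPL10, had 39012 and 39888 reads in WT, while the RPL10 row itself had 1660 and 1764. Each row is therefore given with the gene that shares the most exonic bases with it on the opposite strand, where these are at least 100. Counts of rows over protein-coding genes, and of lists read by the opposite gene, also ask that this gene hold at least 80% of the row's bases over opposite-strand exons. Where no such gene is annotated, the source of the reads is not known. THUMPD2's own row had 1 and 2 reads in the WT libraries, 3 and 0 in those of KO1 and 0 and 1 in those of KO2. These counts check neither the knockout nor the labels. Library totals ran from 7414339 to 8391143 counts. Of 50 marker genes of nephron segments and other cell types, 30 had under 10 reads in every library, and UMOD, SLC12A3, ALB and AFP had none, but under this counting a gene's own transcript is mostly not in its own row. The marker rows summed to 6928 and 7463 reads in the WT libraries, 6643 and 6770 in those of KO1 and 9270 and 9949 in those of KO2, with KRT8 and SLC5A2 holding most of them; their part in the results below was not tested.

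In KO2 against WT, 1934 rows were higher and 2184 lower, 4118 in all, by the edgeR quasi-likelihood test at a Benjamini-Hochberg adjusted p under 0.05. That is 29.0% of the rows tested, 13.6% higher and 15.4% lower, and 1435 of them differed by at least 2-fold. A row was taken as changed in KO2 with KO1 at the WT level when it was called in KO2 against WT and, with the same sign, in KO2 against KO1, while KO1 against WT had an unadjusted p of at least 0.05 and a log2 fold change within 0.5 of 0. This rule found 889 rows, 6.27% of those tested and 21.6% of those called, 374 higher (2.64% of rows tested) and 515 lower (3.63%). Because the rule used the KO1 and KO2 contrasts, the number of such rows and the size of their changes are a description of the set. The higher rows had a median log2 fold change of 0.78 and the lower rows of -0.57, against 0.02 over all tested rows. At least 2-fold changes were found in 120 of the higher and 75 of the lower rows. Just inside the limit on KO1, KIF1A had a KO1 log2 fold change of -0.498, with 8 and 4 reads in the WT libraries, 4 and 4 in those of KO1 and 22 and 19 in those of KO2. Just outside it, MME-AS1 had -0.503, with 15 and 3 reads in the WT libraries, 3 and 9 in those of KO1 and 41 and 28 in those of KO2. The limit on KO1 alone left out 73 rows.

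The 889 rows lay over annotated protein-coding genes more often than rows in general, at 417 rows over 399 genes (46.9% of the set, against 27.5% of all tested rows and 42.0% of all rows called in KO2 against WT). They also held more reads, with a median of 36.2 CPM (counts scaled to library depth) against 5.12 over all tested rows. Over all rows called in KO2 against WT the median was 22.6 CPM. In each of the 6 fits that left out 1 library, 294 of the 889 rows met the rule again, 109 higher and 185 lower. Those fits have 2 residual degrees of freedom and 113.6 to 1128 prior ones, against 3 and 31.92 with all libraries, so they weigh a row's own spread very little.

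The promoters of 3 genes are given here because the rows over these genes stood far apart in KO2 from the other 4 libraries. Each run is the 250 bases before the annotated start (RefSeq, GRCh38.p14), 5′ to 3′ on the gene's strand, with every CpG in capitals. HIF3A is at chr19:46296792-46297041 on the plus strand, BZW2 at chr7:16645931-16646180 on the plus strand and ACTA2 at chr10:88991338-88991587 on the minus strand.
HIF3A: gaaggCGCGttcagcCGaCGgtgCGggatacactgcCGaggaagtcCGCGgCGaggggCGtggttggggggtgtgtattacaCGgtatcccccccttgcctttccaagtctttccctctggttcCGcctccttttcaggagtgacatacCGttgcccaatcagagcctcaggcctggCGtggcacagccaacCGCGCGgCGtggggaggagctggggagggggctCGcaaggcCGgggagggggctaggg
BZW2: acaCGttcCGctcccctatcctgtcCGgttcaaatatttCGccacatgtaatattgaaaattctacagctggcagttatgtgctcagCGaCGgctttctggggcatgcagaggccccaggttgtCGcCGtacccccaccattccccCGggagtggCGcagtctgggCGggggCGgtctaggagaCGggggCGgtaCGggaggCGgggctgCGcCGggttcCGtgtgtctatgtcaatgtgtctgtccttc
ACTA2: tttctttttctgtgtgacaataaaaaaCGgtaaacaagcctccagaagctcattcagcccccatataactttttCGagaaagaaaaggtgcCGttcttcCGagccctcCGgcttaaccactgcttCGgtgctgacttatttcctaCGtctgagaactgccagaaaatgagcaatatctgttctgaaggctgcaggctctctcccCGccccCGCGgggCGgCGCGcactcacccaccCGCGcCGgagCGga
These windows hold 20, 19 and 17 CpGs. Across the genes opposite the 889 rows, 115 of 141 genes opposite higher rows and 210 of 258 opposite lower rows had a promoter in the table. Both had a median of 21 CpGs, the same as the 2744 promoters of genes opposite any tested row, against 11 over all 27305 promoters. The letters TATAA, searched on both strands, occurred in 9.57% and 9.52% of these promoters, 9.33% of those opposite any tested row and 19.6% of all; of the 3 runs printed, only that of ACTA2 holds them.

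The row over BZW2, a protein with a W2 domain of the translation factor eIF5 type, fell to about a 3.35-fold lower level, with many reads behind it. The antisense RNA AC073333.1 (GRCh38 chr7:16695871-16719898, minus strand) shares 139 exonic bases with BZW2. It had 2870 and 3200 reads in the WT libraries, 2842 and 2928 in those of KO1 and 957 and 1031 in those of KO2. Both KO2 libraries were below all 4 others, which the rule that chose the row makes likely. The log2 fold change was -1.74 ± 0.07 (SE, n = 2 per group, edgeR adjusted p = 4.979e-21). This row lies in a stretch of chromosome 7 where most rows were lower in KO2, and its log2 fold change was -1.21 after the median of its 20 Mb window was taken off. In the same chromosome the antisense RNA AC254629.1, over the membrane mucin gene MUC3A, had 91 and 90 reads in the WT libraries, 70 and 89 in those of KO1 and 28 and 16 in those of KO2. The KO2 values did not overlap the others, as the rule again makes likely, and the fall was -2.17 ± 0.28 on the log2 scale (edgeR adjusted p = 1.267e-07). AC010132.2, a pseudogene row over the proteasome subunit gene PSMA2, had 72 and 113 reads in the WT libraries, 102 and 68 in those of KO1 and 42 and 47 in those of KO2 (log2 -1.18 ± 0.25, edgeR adjusted p = 0.0002861).

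Among the rows that rose, the FAS row, which shares 380 exonic bases with ACTA2, the smooth muscle actin gene, had 79 and 79 reads in the WT libraries, 82 and 67 in those of KO1 and 212 and 227 in those of KO2. The log2 fold change was 1.34 ± 0.18 (edgeR adjusted p = 2.016e-07), and KO1 stood at -0.01 ± 0.20, within the limit that chose the row. FAS encodes a death receptor and is a known p53 target, but if reads are counted on the opposite strand they belong to ACTA2. Of the 26 tested rows named for p53 targets, 2 rose and 1 fell, and FAS alone met the rule, all below the shares over all tested rows (13.6% higher, 15.4% lower, 6.27% meeting the rule). Of the 8 rows opposite such genes, 4 rose and 2 fell, and that over the DNA repair gene XPC met the rule. Of all 3895 tested rows over 1 protein-coding gene, 1729 were called in KO2 against WT and 417 met the rule. SLC49A3, over the myosin light chain gene MYL5, had 201 and 176 reads in the WT libraries, 202 and 164 in those of KO1 and 450 and 610 in those of KO2. It rose by 1.35 ± 0.13 on the log2 scale (edgeR adjusted p = 2.048e-10), and by 0.80 relative to its window on chromosome 4. AC007193.2, over the hypoxia-inducible factor subunit gene HIF3A, had 0 reads in all 4 WT and KO1 libraries and 19 and 32 in KO2. With a floor of 3 counts over both WT libraries, it was at least 16.4-fold higher; it passed the filter on low counts only through KO2, and DESeq2 did not call it (adjusted p = 0.3739).

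**Figure D1:**
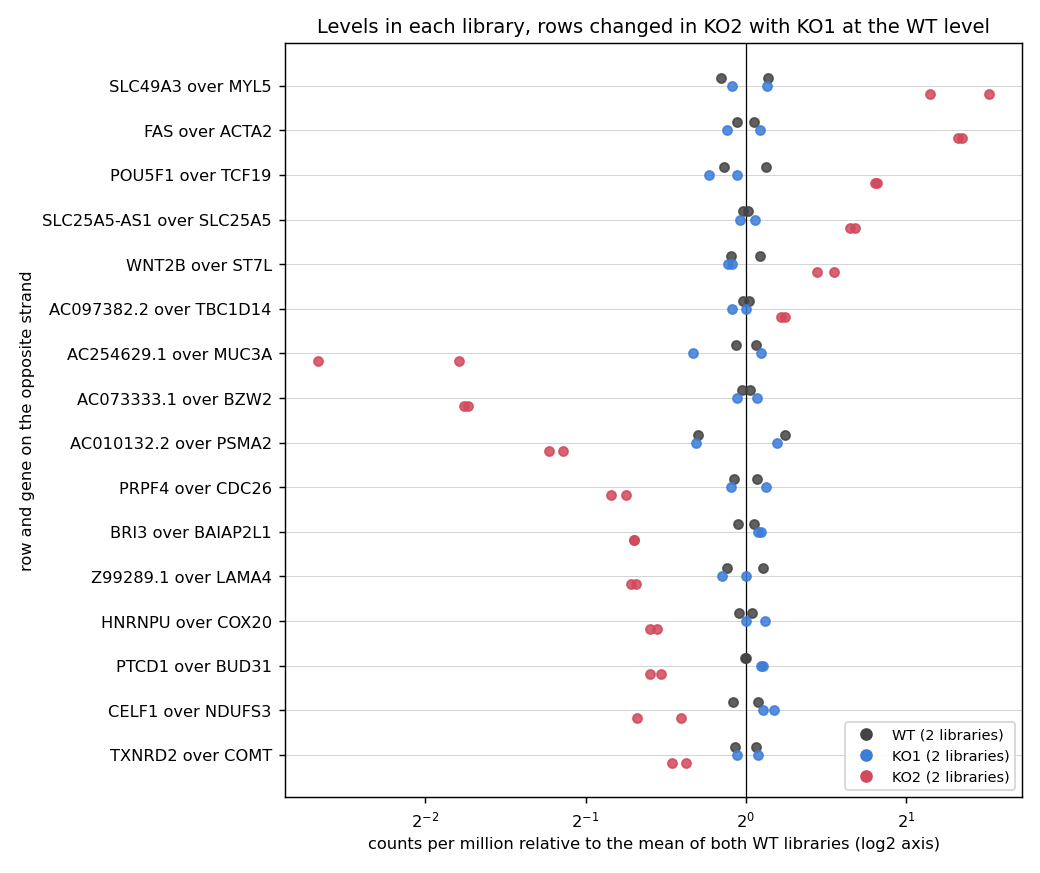
CPM in each library, relative to the mean of both WT libraries (log2 axis), for the 16 named rows over 1 protein-coding gene (at least 100 bases and 80%) that met the rule in every fit without 1 library and had reads in every library. Each point is 1 library. KO2 libraries lie between 0.157 and 2.86 times the WT mean, and KO1 libraries between 0.795 and 1.14 times.

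Several rows over abundant housekeeping genes changed by less than 2-fold and with little spread between libraries. SLC25A5-AS1, over the mitochondrial ADP/ATP carrier gene SLC25A5 on the X chromosome, had 16929 and 17752 reads in the WT libraries, 16474 and 16574 in those of KO1 and 29105 and 31378 in those of KO2. It rose by 0.67 ± 0.05 on the log2 scale (edgeR adjusted p = 1.071e-13). CTBP1-AS, over the transcriptional corepressor gene CTBP1 on chromosome 4, went from 11342 and 12187 reads in WT to 18779 and 19734 in KO2, with 11829 and 11631 in KO1 (log2 0.58 ± 0.05, edgeR adjusted p = 1.035e-11). Both lie in stretches that were higher in KO2 as a whole. With the window median taken off, SLC25A5-AS1 kept a log2 fold change of 0.32, while CTBP1-AS was left at 0.02 and was no longer called.

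Other rows over metabolic genes fell. AC008622.2, over SLC1A5, the main glutamine carrier of many cultured cells, had 15183 and 16191 reads in the WT libraries, 13910 and 14786 in those of KO1 and 10827 and 11071 in those of KO2 (log2 -0.65 ± 0.05, edgeR adjusted p = 3.501e-12). AC093512.1, over the glycolytic aldolase gene ALDOA, had 11082 and 12322 reads in the WT libraries, 10504 and 10908 in those of KO1 and 8423 and 9137 in those of KO2 (log2 -0.55 ± 0.05, edgeR adjusted p = 3.248e-10). MXD3, over PRELID1, which carries phosphatidic acid in mitochondria, had 26476 and 28115 reads in the WT libraries, 24555 and 26030 in those of KO1 and 18372 and 18527 in those of KO2 (log2 -0.70 ± 0.05, edgeR adjusted p = 1.118e-13). In these 3 rows both KO2 libraries were below all others, which the rule that chose them makes likely. Relative to its window on chromosome 5, MXD3 fell by 0.39 and no longer met the rule.

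AC008443.1, over the ubiquitin ligase gene TRIM41, met the rule with replicates far apart. It had 5312 and 2012 reads in the WT libraries, 5036 and 953 in those of KO1 and 1977 and 1245 in those of KO2. The groups overlapped, since KO1 replicate 2 was below both KO2 libraries. The log2 fold change of -1.34 ± 0.34 (edgeR adjusted p = 0.002409) moved to -0.40 without WT replicate 1 and to -1.90 without WT replicate 2, and DESeq2 did not call it (adjusted p = 0.4299).

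In all, 9 rows were read in KO2 alone, with at most 2 reads in each WT and KO1 library and at least 20 in both KO2 libraries, and 1 row showed the reverse. The groups could not overlap by this choice. PPP4R1L, a pseudogene of a phosphatase regulatory subunit on chromosome 20, had 1 and 1 reads in the WT libraries, 1 and 0 in those of KO1 and 344 and 375 in those of KO2, a ratio of KO2 to WT of 346 (95% counting interval 95.4 to 2860). Its neighbour ANKRD60, on the same strand, had 0 reads in the other 4 libraries and 49 and 56 in KO2, at least 33.7-fold higher. The pair spans chr20:58218495-58309439, and no gene is annotated on the opposite strand of their exons. FSTL5, a follistatin-like gene on chromosome 4 whose row lies over the antisense RNA AC104793.1, had 2 and 0 reads in the WT libraries, 0 and 0 in those of KO1 and 362 and 347 in those of KO2, a ratio of 341 (94.1 to 2820). AC021074.3 on chromosome 3 had 0 and 1 in WT, none in KO1, and 252 and 242 in KO2. BDNF-AS, over the gene of the neurotrophin BDNF, had 0 and 1 reads in the WT libraries, 2 and 2 in those of KO1 and 31 and 34 in those of KO2. Every one of the 9 rows passed the filter on low counts only through KO2, and 4 of them also met the rule for the 889 rows; the other 5 had a KO1 estimate outside the limit that rested on 0 to 4 reads in KO1.

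The row lost in KO2 alone was SNX18P24, a pseudogene at chr4:49561479-49562149, with 25 and 26 reads in the WT libraries, 35 and 31 in those of KO1 and 0 and 1 in those of KO2 (ratio of WT to KO2 53, 95% counting interval 9.09 to 2130). AC119751.1, another pseudogene that lies just before it at chr4:49550032-49557400, had 12 and 15 reads in the WT libraries, 9 and 12 in those of KO1 and none in those of KO2, at least 9.35-fold lower. Both rows are on the plus strand with no gene annotated opposite, and reads of near-identical pseudogene copies may be split between rows.

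**Figure D2:**
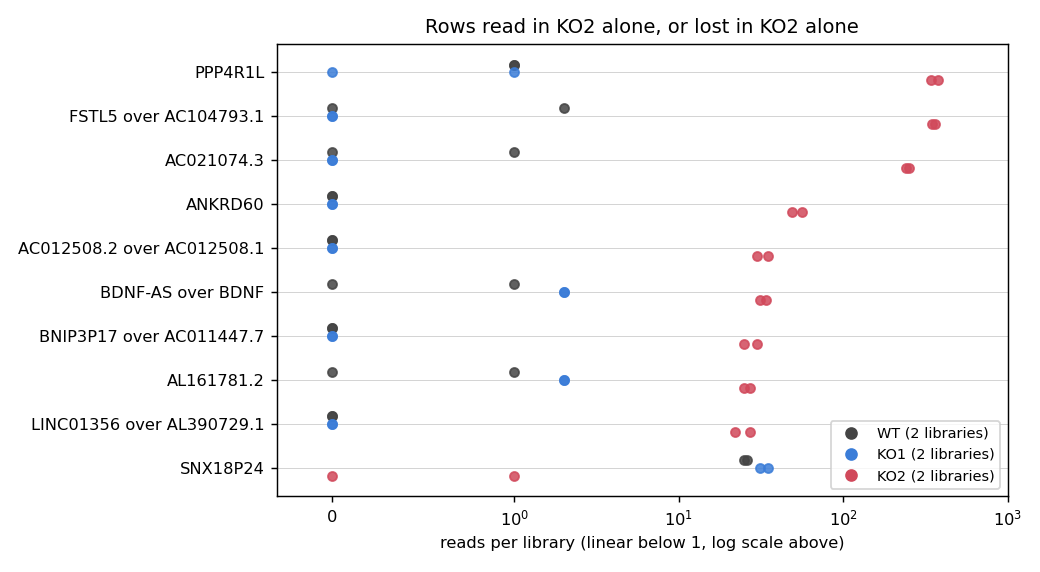
Reads per library (linear below 1, log scale above) for the 10 rows read in KO2 alone or lost in KO2 alone. Each point is 1 library; in 9 rows both KO2 libraries lie between 22 and 375 reads while the WT and KO1 libraries lie between 0 and 2, and in SNX18P24 the order is the reverse.

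The share of rows among the 889 differed between chromosomes, given here as a description. They made up 17.0% of tested rows on chromosome 4, 14.9% on chromosome 14, 12.5% on chromosome 7, 9.32% on chromosome 9 and 8.82% on the X chromosome, against 2.07% on chromosome 13 and 2.6% on chromosome 10. A low share by the rule need not mean little change in KO2. On chromosome 10, 33.5% of tested rows were called in KO2 against WT, with a median log2 fold change of -0.29 in KO2 and -0.46 in KO1. On chromosome 7, 75 were lower and 3 higher, on chromosome 14, 63 were lower and 3 higher, and on the X chromosome 31 were higher and 2 lower. Of the 22 mitochondrial rows, 17 were called lower in KO2 but none met the rule, as their median log2 fold change was -0.84 in KO2 and -0.58 in KO1.

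**Figure D3:**
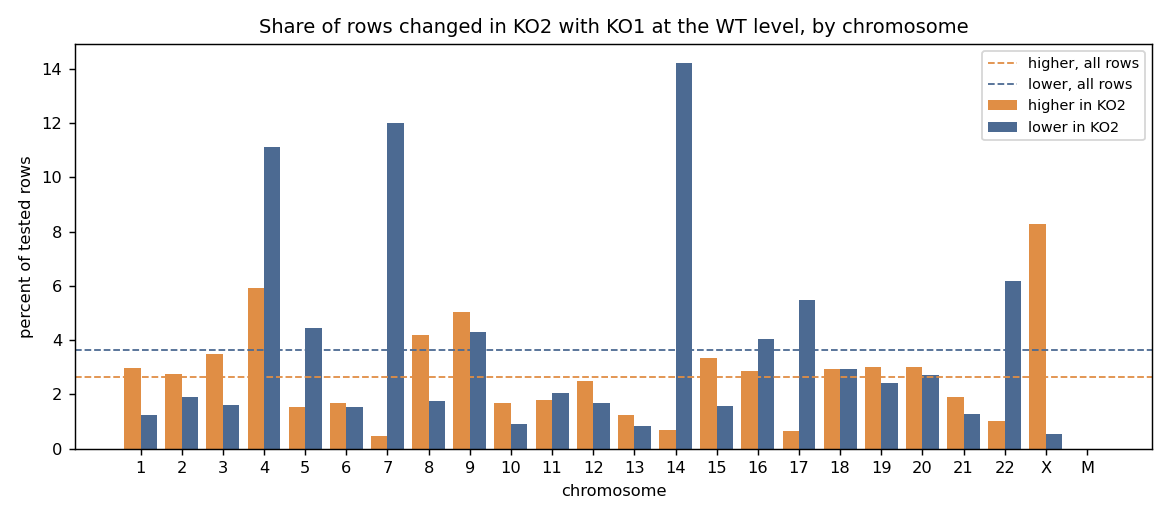
Percent of tested rows on each chromosome that changed in KO2 with KO1 at the WT level, higher and lower in KO2 (bars from 0). Dashed lines give the shares over all rows, 2.64% higher and 3.63% lower; the lower share reaches 14.2% on chromosome 14 and the higher share 8.29% on X.

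Medians over 20 Mb windows showed long stretches where most rows moved together. A median was taken in 150 windows with at least 15 rows of a mean of 20 counts or more. It lay at least 0.3 from 0 in 49 windows for KO2 and in 28 for KO1, so such shifts were not particular to KO2. For example, the window from 140000001 on chromosome 3 had -0.09 in KO2 and -0.70 in KO1. That from 220000001 on chromosome 1 had 0.60 and 0.57. In 21 windows the KO2 median lay at least 0.3 from 0 on the log2 scale while the KO1 median lay within 0.15, 7 higher and 14 lower. On chromosome 14, 3 windows between 20000001 and 80000000 had a median of -0.51 in KO2 and 0.01 in KO1, and 209 of their 232 rows were below 0. On chromosome 7, 6 of the 7 windows between 1 and 140000000 had a median of -0.48 in KO2 and -0.04 in KO1, with 257 of 311 rows below 0. Chromosome 4 held both directions: 2 windows between 1 and 40000000 had a median of 0.55 in KO2, and 4 windows between 80000001 and 180000000 had -0.53, with KO1 medians of 0.00 and 0.01. The last 3 windows of the X chromosome, from 100000001 on, had a median of 0.48 in KO2 and 0.08 in KO1, and 2 windows of chromosome 9 between 60000001 and 100000000 had 0.55 and 0.09. As ratios, these medians are 0.703 on chromosome 14, 0.715 on chromosome 7 and 1.4 on the X chromosome. DNA copy number was not measured here, and its part in these medians was not tested.

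**Figure D4:**
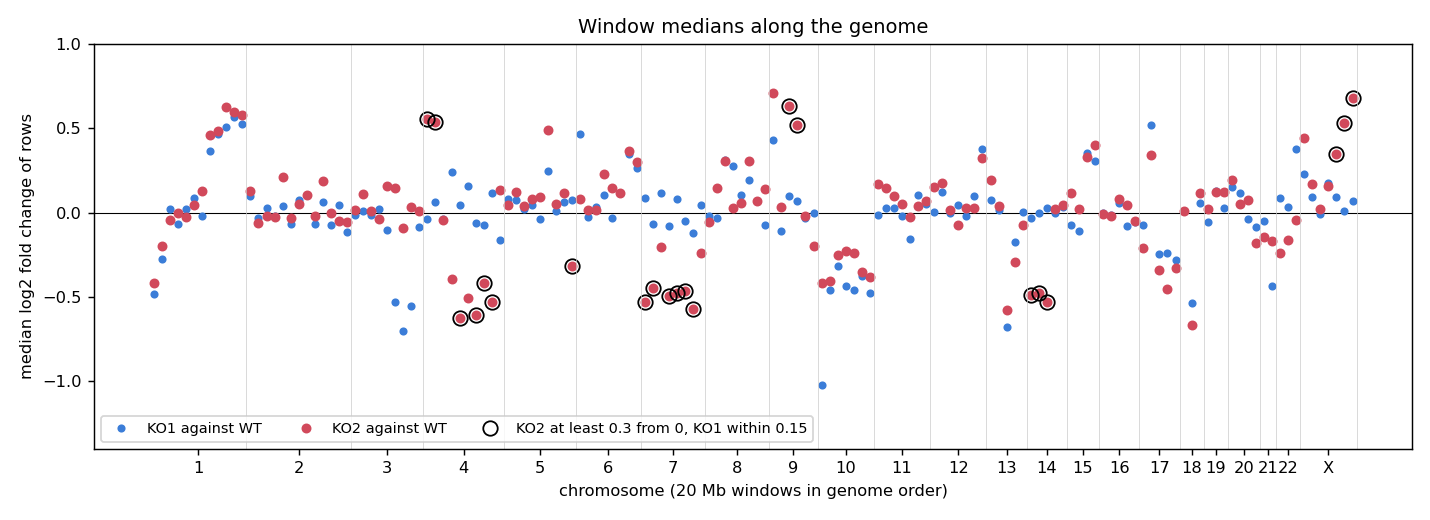
Median log2 fold change of rows in each 20 Mb window, in genome order, for KO2 and KO1 against the same WT libraries. Ringed points are the 21 windows where KO2 lies at least 0.3 from 0 and KO1 within 0.15; they fall on chromosomes 4, 5, 7, 9, 14 and X.

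These 21 windows hold 10.3% of tested rows and 233 (26.2%) of the 889, of which 231 moved in the direction of their window and 2 against it. The windows were chosen by the same KO2 and KO1 fold changes that chose the 889 rows, and these rows can count in the medians. That choice makes a larger share and a common direction likely, also for the 10 Mb bins below. The window size and both limits were chosen after the data were seen. Bins of 10 Mb, tried first, covered little of chromosome 4, and with the same limits 17 of 146 bins held 174 (19.6%) of the 889 rows and 7.99% of tested rows. Of the 889 rows, 852 lay in a 20 Mb window with a median, and their fold changes were taken relative to it. The other rows had no window median and nothing was taken off them. In that fit 438 of the 889 rows met the rule again, 197 higher and 241 lower, and in the 21 windows 37 of 233 did. The 438 include rows without a window median. For 176 rows the rule was met in every fit without 1 library and also in the fit relative to windows, 78 higher and 98 lower. Rows without a window median were counted here too.

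TRMT112, the activator of THUMPD2, had a row that fell in KO2 but missed the rule. The row, which shares 284 exonic bases with the nuclear receptor gene ESRRA, had 992 and 983 reads in the WT libraries, 799 and 868 in those of KO1 and 689 and 745 in those of KO2. The KO2 values lay below the others, at -0.60 ± 0.08 on the log2 scale (edgeR adjusted p = 2.947e-07), and KO1 lay between, at -0.16 ± 0.08 (edgeR adjusted p = 0.1485). The row missed the rule by its unadjusted edgeR p in KO1 against WT, 0.04989 against a limit of 0.05. Relative to its window it met the rule, at -0.65. If reads are counted on the opposite strand, the row does not measure TRMT112 transcripts. The BUD23 row on chromosome 7 lies over more than 1 gene, with 662 of its bases shared with STX1A, too few of them to give the row to STX1A alone. It had 1623 and 1677 reads in the WT libraries, 1598 and 1500 in those of KO1 and 1094 and 1175 in those of KO2 (log2 -0.68 ± 0.07, edgeR adjusted p = 6.741e-10). Relative to its window it stood at -0.18. Among 7 tested rows named for TRMT112 partners and THUMP proteins, 1 rose and 2 fell, and BUD23 alone met the rule. Over all tested rows, 13.6% rose, 15.4% fell and 6.27% met the rule, and this list was not tested as a list. Of the 6 rows opposite such genes, 1 rose and 2 fell, and none met the rule. Of all 3895 tested rows over 1 protein-coding gene, 1729 were called in KO2 against WT and 417 met the rule. The row over BUD23 itself, DNAJC30, had 113 and 107 reads in the WT libraries, 18 and 121 in those of KO1 and 10 and 10 in those of KO2 (log2 -3.58 ± 0.48, edgeR adjusted p = 2.358e-07), with the KO1 libraries far apart.

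The lists that follow, where read by row name, were set against all tested rows. Of these, 13.6% were higher, 15.4% lower and 6.27% met the rule, and their median log2 fold change was 0.02. Where a list is read by the opposite gene, the background is the 3895 tested rows over a protein-coding gene. Of these, 1729 were called in either direction and 417 met the rule, so the shares over all tested rows do not apply. Their split by direction is not given here. None of the lists was tested as a list.

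Of 29 tested rows named for U6 and tri-snRNP proteins, 2 rose and 3 fell, with a median log2 fold change of 0.12, and only PRPF4 met the rule, so that each count was below the share over all tested rows. The PRPF4 row lies over CDC26, a subunit of the anaphase-promoting complex, and had 517 and 617 reads in the WT libraries, 518 and 566 in those of KO1 and 337 and 380 in those of KO2 (log2 -0.79 ± 0.10, edgeR adjusted p = 4.654e-08). The row lying over PRPF4 itself, CDC26, had 17 and 17 reads in the WT libraries, 17 and 10 in those of KO1 and 10 and 3 in those of KO2, and did not pass the test (edgeR adjusted p = 0.05824). The 8 rows opposite U6 and tri-snRNP genes had a median of -0.12, and 1 fell.

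Of 53 tested rows named for SR proteins and hnRNPs, 9 rose and 9 fell, near the 13.6% and 15.4% over all tested rows, with a median of -0.03. The rule was met by 1 higher and 6 lower rows, against 2.64% and 3.63% over all tested rows. The SRPK2 row, over AC004884.2, and the HNRNPA2B1 row, over CBX3, lie in windows of chromosome 7 that were lower in KO2. Relative to these windows the SRPK2 row went from -0.63 to -0.16 and the HNRNPA2B1 row from -0.51 to -0.07, and neither was still called. The HNRNPU row, over COX20, an assembly factor of cytochrome c oxidase, had 1966 and 2002 reads in the WT libraries, 2102 and 1826 in those of KO1 and 1409 and 1523 in those of KO2 (log2 -0.57 ± 0.07, edgeR adjusted p = 2.234e-08). Relative to its window on chromosome 1, which was higher in both lines, it fell by 1.15 but no longer met the rule. The CELF1 row, over the complex I subunit gene NDUFS3, had 455 and 544 reads in the WT libraries, 549 and 493 in those of KO1 and 333 and 425 in those of KO2 (log2 -0.53 ± 0.10, edgeR adjusted p = 7.894e-05). It met the rule relative to its window too, at -0.63. Read by the opposite gene, 22 rows were tested, 7 rose and 4 fell, and SRSF2, HNRNPH3 and ELAVL1 met the rule. The row over SRSF2, MFSD11, had 49285 and 50174 reads in the WT libraries, 45603 and 43659 in those of KO1 and 40405 and 42154 in those of KO2 (log2 -0.40 ± 0.04, edgeR adjusted p = 9.874e-10), but 0.05 relative to its window on chromosome 17.

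Adhesion and matrix rows differed with how they were read. By row name, 11 of 39 tested rows rose and 3 fell, with a median of 0.20 in KO2 and -0.09 in KO1, and FN1 and VIM met the rule. By the opposite gene, 7 of 18 rose and 6 fell, with medians of -0.46 in KO2 and -0.38 in KO1. If reads are counted on the opposite strand, the FN1 and VIM rows do not measure the transcripts they are named for. The FN1 row, named for fibronectin and with no gene annotated opposite, had 347 and 382 reads in the WT libraries, 402 and 386 in those of KO1 and 835 and 822 in those of KO2 (log2 1.05 ± 0.09, edgeR adjusted p = 9.688e-12). The VIM row, named for the intermediate filament protein vimentin and lying over VIM-AS1, had 339 and 352 reads in the WT libraries, 296 and 313 in those of KO1 and 678 and 692 in those of KO2 (log2 0.85 ± 0.10, edgeR adjusted p = 6.385e-09). Among the rows read by the opposite gene, that over the laminin gene LAMA4, Z99289.1, met the rule with a fall of 0.70 on the log2 scale (180 and 227 reads in the WT libraries, 198 and 168 in those of KO1, 132 and 142 in those of KO2), as did AC091564.4 over DCHS1.

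The list of nephron, epithelial and other markers held 15 tested rows, of which 4 rose and 2 fell. Only POU5F1, named for a pluripotency factor and lying over TCF19, met the rule, with 102 and 91 reads in the WT libraries, 91 and 76 in those of KO1 and 181 and 192 in those of KO2 (log2 0.81 ± 0.18, edgeR adjusted p = 0.0004933). The KRT18 row, over the keratin gene KRT8, had 76 and 72 reads in the WT libraries, 75 and 115 in those of KO1 and 229 and 255 in those of KO2, a rise of 1.57 ± 0.19 (edgeR adjusted p = 3.469e-08), with KO1 at 0.44. In bulk RNA, more cells of a type and more RNA per cell cannot be told apart.

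Among the metabolic lists, 19 rows named for selenoproteins and selenium handling were tested, 2 rose and 2 fell, and SELENOO, GPX3 and TXNRD2 met the rule. SELENOO, named for a mitochondrial selenoprotein, had 480 and 478 reads in the WT libraries, 537 and 439 in those of KO1 and 799 and 836 in those of KO2 (log2 0.64 ± 0.09, edgeR adjusted p = 4.692e-07). Genes of glutamine, serine and amino acid metabolism also differed with the reading. By row name, 2 of 30 rows rose and 4 fell, with a median of 0.06 in KO2 and 0.42 in KO1. The row named for the alanine transaminase GPT met the rule, with 580 and 650 reads in the WT libraries, 676 and 559 in those of KO1 and 1193 and 1212 in those of KO2, as did the MTHFD1 row. By the opposite gene, 1 of 13 rows rose and 9 fell, with a median of -0.43 in KO2 and -0.05 in KO1. The background here is the 3895 tested rows over 1 protein-coding gene, of which 1729 were called in either direction. The rows over SLC1A5 and MTHFD1 met the rule. The row over the folate enzyme gene MTHFD1, AL122035.2, had 6737 and 7298 reads in the WT libraries, 6903 and 6919 in those of KO1 and 5431 and 5763 in those of KO2 (log2 -0.46 ± 0.06, edgeR adjusted p = 2.876e-08), and lies in the lower stretch of chromosome 14, where it stood at 0.07 relative to its window. Of 12 rows opposite glycolysis and pyruvate genes none rose and 5 fell, with a median of -0.10, and only that over ALDOA met the rule. Of 11 rows opposite sterol and fatty acid genes, 1 rose and 5 fell. For both lists the background is again the 3895 tested rows over 1 protein-coding gene, 1729 of them called and 417 meeting the rule. Neither list is set apart by these counts. The INSIG1 row, named for a brake on sterol synthesis and with no gene opposite, had 102 and 98 reads in the WT libraries, 71 and 74 in those of KO1 and 50 and 48 in those of KO2 (log2 -1.16 ± 0.23, edgeR adjusted p = 0.0001067).

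In the Wnt, BMP and TGF-beta list, 9 of 42 tested rows rose and 4 fell by row name, and of 12 read by the opposite gene 2 rose and 5 fell. WNT2B, a Wnt ligand gene whose row lies over ST7L, had 373 and 456 reads in the WT libraries, 380 and 351 in those of KO1 and 603 and 681 in those of KO2 (log2 0.50 ± 0.09, edgeR adjusted p = 7.698e-05), and met the rule, as LGR5 did, which makes 2 of 42 against 6.27% over all tested rows. SARNP, over the growth factor gene GDF11 and the 1 row of the 12 to meet the rule, had 186 and 245 reads in the WT libraries, 184 and 160 in those of KO1 and 133 and 123 in those of KO2 (log2 -0.88 ± 0.16, edgeR adjusted p = 3.551e-05). Of 47 rows named for homeobox and developmental regulators, 8 rose and 7 fell, and only SIX4 met the rule. Of 20 rows opposite such genes, 4 rose and 9 fell, and only that over LHX2 met it. Of 20 rows named for potassium channels, 6 rose and none fell, against 13.6% and 15.4% over all tested rows, and KCNK12 and KCNC1 met the rule. Of 7 rows opposite such genes, 4 rose and 1 fell, and the row that met the rule, AL050404.1 over KCNG1, fell by 0.29 on the log2 scale. KCNK12 had 24 and 34 reads in the WT libraries, 20 and 19 in those of KO1 and 94 and 84 in those of KO2 (log2 1.48 ± 0.28, edgeR adjusted p = 5.14e-05). Of 16 rows named for neuronal and synaptic genes, 3 rose and 1 fell, and the row that met the rule, NEUROG2, fell by 0.95 and was no longer called relative to its window on chromosome 4. Of 15 imprinted gene rows, 4 rose and 2 fell, and MEST (over AC007938.2), GRB10 and NNAT met the rule. GRB10 had 42 and 8 reads in the KO2 libraries, and its log2 fold change ran from -3.15 to -0.71 in fits without 1 library. DESeq2 called neither GRB10 (adjusted p = 0.2777) nor NNAT (adjusted p = 0.1018). MEST went from -0.53 to 0.04 relative to its window on chromosome 7.

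The interferon and antigen presentation list had no row that met the rule, by row name (20 tested, 2 higher and 2 lower) or by opposite gene (8 tested, 5 lower). The rows over these 8 genes had medians of -0.94 in KO2 and -0.90 in KO1. For the 20 rows read by name, the background is the 6.27% of all tested rows that met the rule. For the 8 rows read by opposite gene, it is 417 of 3895 rows over a protein-coding gene. With so few rows tested, a count of 0 does not set this list apart. For example, AC015912.1, over the ubiquitin ligase gene TRIM25, had 1412 and 1436 reads in the WT libraries, 642 and 635 in those of KO1 and 676 and 638 in those of KO2, with both knockout lines below WT.

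Some rows changed in KO2 and in KO1 by unlike amounts, so that they fall outside the rule. AF106564.1, over the neurofilament gene NEFM on chromosome 8, had 719 and 772 reads in the WT libraries, 74 and 67 in those of KO1 and 6469 and 6574 in those of KO2. It was higher than WT in KO2 (log2 2.99 ± 0.07, edgeR adjusted p = 3.602e-28) and lower in KO1 (-3.32 ± 0.10, edgeR adjusted p = 1.135e-24). CCDC152, over the selenium carrier gene SELENOP, had 8 and 11 reads in the WT libraries, 660 and 559 in those of KO1 and 876 and 1014 in those of KO2. SPRYD4, over the glutaminase gene GLS2, had 471 and 486 reads in the WT libraries, 19 and 36 in those of KO1 and 6 and 13 in those of KO2. SSC4D, over the zona pellucida gene ZP3, had 107 and 97 reads in the WT libraries, 16 and 37 in those of KO1 and none in those of KO2, at least 70.7-fold lower than WT.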

How the data were processed

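The read counts that the authors deposited are whole numbers, 1 row per gene symbol, not normalized, for 59087 rows and 6 libraries (2 each of WT, KO1 and KO2, grouped by the genotype labels). Their FPKM values and their pooled comparison were not used. Per the labels' protocols the libraries were made with a directional kit. Per the submitters' processing notes the tools named are HTSeq 0.6.1p1, STAR 2.7.1a, Trim Galore and limma (builds GRCh38.p6 and hg38). How the counting treated strand, and which annotation it used, is not stated by the labels or notes.

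The test was the quasi-likelihood F test of edgeR 4.0.16 in R 4.3.3 (TMM, filterByExpr), with all 6 libraries in 1 fit of 3 groups, 3 residual degrees of freedom, and Benjamini-Hochberg adjustment over 14184 rows. The script was tested on simulated data. Symbols were placed with GENCODE gene models of GRCh38, 56239 directly and 324 by another symbol; 176 with several places and 2348 without one were left unplaced. The gene named beside a row shares the most exonic bases with it on the opposite strand, at least 100; for counts it must also hold at least 80% of the row's bases over opposite-strand exons. Promoters came from RefSeq (GRCh38.p14).

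The members, the 16 gene lists and the rules were chosen with earlier results of these data known. Rows were named by rule: THUMPD2, TRMT112 and 5 rows known from those results; the highest, lowest and most abundant rows meeting the rule with a mean of at least 1 CPM; rows read in KO2 alone or lost there; list members meeting the rule, or else the 2 of smallest p; and abundant rows of the 3 10 Mb bins where the lines differed most. KIF1A and MME-AS1 were taken as the rows nearest the limit on KO1. Alternatives were other scaling (RLE, upper quartile), DESeq2 1.42.0, limma-voom 3.58.1, other filters, a fold threshold, a replicate block, a genome window offset and leaving out each library. Replicates of each group differed by more than sampling noise (chi-square per degree of freedom 2.3 to 4.13). Depth limits rows with few reads, and counting intervals cover counting error only.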

Additional observations from a re-analysis of the deposited data

Results flagged for a closer look

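The named rows outside the 889 whose KO2 and KO1 effects differed, by the edgeR test of KO2 against KO1 at an adjusted p under 0.05, are given here as log2 differences of KO2 minus KO1. Rows among the 889 were chosen by that same test and are not repeated. In 4 rows the lines were called in opposite directions against WT: AF106564.1 over NEFM (6.32), C6orf201 over the fatty acid isomerase gene ECI2 (-0.72), AL139095.4 over SSR1 (-0.69) and AC245052.4 over the splicing factor gene PRPF31 (-0.34). In AC245052.4 and AL139095.4 the KO2 call was lost without KO2 replicate 1 or without WT replicate 1.

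Both lines were on the same side of WT, or KO1 did not pass its test, in the others. KO2 was above KO1 for FSTL5 (11.36), AC021074.3 (10.84), PPP4R1L (8.97), BDNF-AS (3.73), AL161781.2 (3.41), AC027451.1 over KCNV1 (2.65), KRT18 (1.13), RPL10 (0.71), AL671883.2 over HLA-B (0.50) and CCDC152 (0.42). The first 5 of these rest on 0 to 4 reads over both KO1 libraries, and their fitted differences depend on the prior count. FSTL5 and AC021074.3 had 0 reads in KO1, so that their fitted values are neither a size nor a bound. KO2 was below KO1 for SSC4D (-7.84), DNAJC30 over BUD23 (-3.01), AC023194.3 over ATP6V0D2 (-1.97), SPRYD4 (-1.74), TRMT112 (-0.43), PSMG4 over SLC22A23 (-0.39) and PDAP1 (-0.35). The same holds for SSC4D, which had 0 reads in KO2. FSTL5, AC021074.3, PPP4R1L, BDNF-AS and AL161781.2 passed the filter on low counts only through KO2, and SSC4D only through WT and KO1. DNAJC30 had 18 and 121 reads in the KO1 libraries, 113 and 107 in WT, and 10 and 10 in KO2.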

How the results depend on the processing

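A fold threshold of 1.2 left 2695 of the 4118 rows called in KO2 against WT and 550 of the 889 that met the rule. Requiring at least 300 shared exonic bases left 264 of the 417 rows over a protein-coding gene. Every other setting run moved these counts by less than 1.5 times, with 2812 to 4541 rows called and 635 to 962 meeting the rule. DESeq2 gave 2812 called, and 204 higher and 431 lower rows meeting the rule. Leaving out 1 library gave 3228 to 4541 called and 645 to 820 meeting the rule. Where that left a group with 1 library, it was assumed to vary like the other groups, and the filter kept more rows. The replicate block gave 3944 and 867; same-numbered libraries did not deviate together (correlations -0.0322 to -0.0215), so the numbers were not taken as pairs. The 10 Mb offset gave 3402 and 737, and the 20 Mb offset, added after the data were seen, 3276 and 684. A fit of KO2 and WT alone gave 4326 called and no value for the rule, which needs KO1. Upper-quartile scaling gave 2088 higher and 2022 lower.

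Over 116 named rows, 1761 alternative values kept direction and call, 155 lost the call, 2 gained it and 20 reversed, all under the 10 Mb or 20 Mb offset, which subtracts the regional median by construction. These were (10 Mb, then 20 Mb) AC245140.2 over RPL10 (-0.45, -0.47), AC097382.2 (-0.19, -0.32), MFSD11 (0.15, 0.045), ENO3 (0.12, 0.052), MTHFD1 (0.032, 0.020), AL122035.2 (0.081, 0.069), AC007938.3 (0.043, 0.11) and PNCK (-0.19, -0.21), with RUFY2 (0.054) and MEST (0.035) at 20 Mb and TXNRD2 (0.10) and AL139095.4 (0.015) at 10 Mb.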
